A study of Mus musculus with 36 samples.

Results

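Messenger RNA of 43 immediate early and activity-regulated genes was followed in mouse hippocampus after water maze training and in the presence of APP and Tau transgenes. The genes were taken by name from a list of transcripts known to respond to neuronal activity, and the rule uses no measured value. The list was, however, chosen with earlier results of these data known. All 43 were found among the 50559 gene symbols of the count table, and all 43 were among the 25382 genes with enough counts to be tested. They fall by role into 8 AP-1 genes and partners, 7 EGR and NR4A factors, 9 other nuclear regulators, 13 genes of signalling feedback and stress response, and 6 synaptic and secreted effectors.

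The study sequenced bulk RNA of both hippocampi of female mice aged 6 months in 36 libraries. APP mice were heterozygous for human APP bearing Swedish and Indiana mutations (J9 line), Tau mice carried human P301S tau (PS19 line), APP/Tau mice carried both, and WT mice carried neither. Every mouse, WT included, also carried a Pvalb-driven Cre and a RiboTag allele, which tags ribosomes of parvalbumin interneurons. The libraries hold the input fraction of the cleared lysate, taken without selection for tagged ribosomes, so they report on all hippocampal cells. As background, the J9 transgene is driven by a PDGF promoter active mainly in neurons, and the PS19 transgene by the mouse prion (Prnp) promoter. Trained mice swam 6 trials a day for 5 days in a maze with a hidden platform, had a probe trial 24 hours later, and were killed 2 hours after that. Naive mice stayed in the home cage, and all mice were handled on 3 days beforehand. There were 3 APP trained and 5 APP naive libraries, 4 Tau trained and 4 Tau naive, 3 APP/Tau trained and 6 APP/Tau naive, and 5 WT trained and 6 WT naive.

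Immediate early genes are transcribed without new protein synthesis when synaptic input raises calcium through NMDA receptors and L-type channels. Kinase cascades then act on factors already bound at their promoters, among them CREB at cyclic AMP response elements and serum response factor at CArG boxes. Many of the first products are transcription factors with short-lived messages, and others act at the synapse (Arc, Homer1, Nptx2), are secreted (Bdnf, Inhba) or switch the signalling off (the Dusp phosphatases). In the hippocampus these transcripts are widely used as marks of recently active neurons and of memory formation.

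Library totals were 69.2 to 124.8 M counts (median 85.4 M, with M for mega). Levels are given as CPM, the count per M of the library's TMM-scaled total, which are comparable between libraries for 1 gene but not between genes of different length. Marker genes of hippocampal neurons were measured in every library, with summed levels of 507 to 947 CPM for 10 dentate granule markers and 695 to 1082 CPM for 9 CA1 markers. Prnp, the gene whose promoter drives the Tau transgene, lay at 1423 CPM or more in 16 of the 17 libraries labelled Tau or APP/Tau, but at 846 CPM in the library labelled Tau trained replicate 4, within the 728 to 879 CPM of the 19 other libraries. Usp16, on the other hand, separated the 17 APP and APP/Tau libraries (12.9 to 14.9 CPM) from the 19 others (24.8 to 30.3 CPM). WT trained replicate 4 had striatal markers at 479 CPM, against 86.7 to 143.6 CPM in the other libraries, and WT trained replicate 5 had endothelial markers at 65.9 CPM. In bulk tissue, fewer cells of a type and less RNA per cell cannot be told apart.

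No member passed an adjusted p of 0.05 in any of the 5 training comparisons or the 6 genotype comparisons with edgeR's quasi-likelihood test and Benjamini-Hochberg adjustment over all 25382 genes. Of all genes, 0% passed in each training comparison. Trained mice were sampled only 2 hours after the probe trial, so a rise that had ended by then would not be seen. In the genotype comparisons 0.0276% passed in APP trained, 0.0355% in APP naive, 0.303% in Tau trained, 0.0276% in Tau naive, 0.0552% in APP/Tau trained and 0.067% in APP/Tau naive (0.0394% lower), each against WT in the same state. By DESeq2, 2 members passed for training in Tau, where 2.12% of its genes passed. None passed in the other comparisons, where 2.77% of its genes passed for Tau trained against WT. By limma-voom, 4 passed for training in Tau (3.07% of all genes), 1 in Tau trained against WT (5.12% of all genes) and 0 in each of the others. Levels and differences are therefore described, and each p under 0.05 that is counted is unadjusted. Without the 3 libraries that stand apart (the one labelled Tau trained replicate 4, and WT trained replicates 4 and 5), that count was 1 in place of 2 members for APP trained against WT, 1 in place of 3 for non-additivity in trained mice and 0 in place of 1 for the APP interaction, and it stayed within a factor of 1.5 in the other 13 contrasts.

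**Figure D1:**
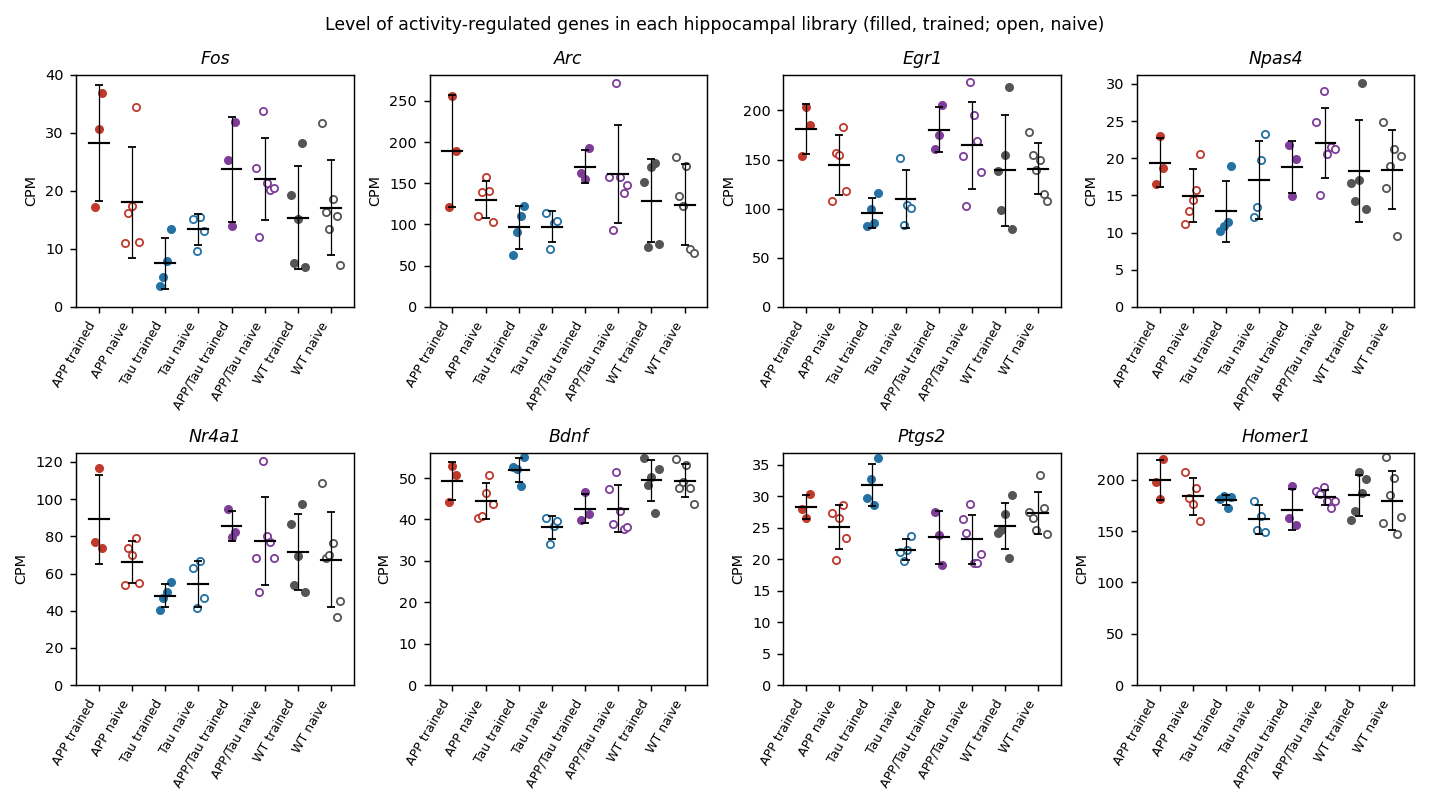
Level in CPM (linear axis from 0) of Fos, Arc, Egr1, Npas4, Nr4a1, Bdnf, Ptgs2 and Homer1 in each of the 36 libraries, by group, with trained libraries filled and naive libraries open. Horizontal lines are group means and vertical bars the SD. The Tau trained libraries lie between 48.1 and 55.0 CPM for Bdnf, above all Tau naive libraries. For Fos, Arc, Egr1, Npas4, Nr4a1 and Homer1, trained and naive libraries overlap in each genotype. In Tau mice, only the library labelled Tau trained replicate 4 overlaps the naive range for Fos and Npas4.

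In APP mice after training, 42 of 43 members lay above 0 on the log2 scale, with a median difference of 0.19, against 0.02 for all genes tested. Dusp4, at -0.01, was the exception. Several members varied together between libraries, as given below, so counts of members are not counts of independent genes. The mean log2 CPM of the 43, centred over all libraries, was 0.05, 0.37 and 0.27 in APP trained libraries. In APP naive libraries it was -0.08, -0.04, -0.02, 0.17 and -0.20. Fos, the founding member of AP-1, had 17.2, 30.7 and 36.8 CPM in the APP trained libraries, against 11.00, 16.1, 17.4, 34.4 and 11.2 CPM in the APP naive libraries. Arc, which drives removal of AMPA receptors from synapses, had 122, 256 and 189 CPM in trained and 110.4, 139, 158, 141 and 103 CPM in naive libraries. In both genes the highest trained library exceeded all naive ones, but replicate 1 lay within the naive range. For Fos, replicate 2 lay within it too. Egr1, a zinc-finger factor used as a mark of recent activity, had 153, 204 and 186 CPM in APP trained and 108, 156, 155, 183 and 118 CPM in APP naive libraries. Npas4, a neuron-restricted factor that recruits inhibitory synapses, had 16.5, 22.9 and 18.7 CPM in APP trained and 11.1, 12.9, 14.4, 15.8 and 20.5 CPM in APP naive libraries. Nr4a1, an orphan nuclear receptor, had 76.9, 117 and 73.9 CPM in APP trained and 53.7, 73.6, 69.8, 79.1 and 55.04 CPM in APP naive libraries. All 3 genes had higher means after training and overlapped between the groups.

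The log2 differences were 0.64 ± 0.44 (SE) for Fos, 0.54 ± 0.33 for Arc, 0.33 ± 0.25 for Egr1, 0.37 ± 0.28 for Npas4 and 0.43 ± 0.27 for Nr4a1. Bdnf, the neurotrophin, had 44.2, 52.96 and 50.6 CPM in APP trained and 40.5, 40.8, 46.4, 50.8 and 43.7 CPM in APP naive libraries. Homer1, a postsynaptic scaffold whose short activity-induced form is not separated from the long forms in gene counts, had 197, 181 and 219.9 CPM in APP trained and 207, 182, 177, 192 and 159.9 CPM in APP naive libraries. These 2 genes differed by less than Fos and Arc did, at 0.15 ± 0.10 and 0.12 ± 0.10. Unadjusted p was under 0.05 for 3 members, which is 6.98%, against 5.24% of all genes, and all 3 were higher after training, as were 3.42% of all genes. Gadd45b, a stress-induced gene linked to DNA demethylation, lay higher by 0.37 ± 0.15, the small Maf factor Maff by 0.73 ± 0.31, and the small GTPase Arl4d by 0.81 ± 0.39. Their adjusted p with edgeR's quasi-likelihood test was 0.925 each. The count of 3 was 1 without APP trained replicate 3 or without APP naive replicate 3 or 5, 6 without APP naive replicate 4, 7 in a fit on only the groups compared, and 1 when the number that the labels give each library was a covariate (the library number). Without APP trained replicate 2 the Gadd45b difference was 0.24.

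Arl4d was at 12.2, 23.7 and 17.1 CPM in APP trained libraries and at 10.1, 10.1, 10.4, 9.08 and 10.6 CPM in APP naive libraries. It was the 1 member without overlap, while 1.36% of all genes did not overlap with trained libraries higher. Without APP trained replicate 2, its highest library, the difference was 0.55. All 10 heat shock genes, a list that marks handling stress, also lay above 0 in this comparison (median 0.11, summed level 2926 to 3057 CPM in trained and 2530 to 3101 CPM in naive libraries). Their part in the result was not tested. Of 41 further activity-regulated genes outside the 43, 37 lay above 0 with a median of 0.12, and 0 passed. Vgf, a secreted neuropeptide precursor, had the smallest p of these 41, at 0.29 ± 0.11 with an adjusted p of 0.925 with edgeR's quasi-likelihood test.

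In Tau mice Bdnf and Ptgs2 lay higher after training, while Fos lay lower on average, and the 43 members as a whole were centred near 0 (median -0.02, against -0.01 for all genes). Bdnf had 52.8, 52.1, 48.1 and 55.03 CPM in Tau trained libraries, against 40.4, 34.1, 38.4 and 39.6 CPM in Tau naive libraries. Ptgs2, the inducible cyclooxygenase, had 29.8, 32.8, 28.6 and 36.02 CPM in Tau trained and 21.2, 19.7, 21.5 and 23.7 CPM in Tau naive libraries. Every trained library lay above every naive one in both genes. The log2 differences were 0.45 ± 0.09 for Bdnf and 0.56 ± 0.13 for Ptgs2, with adjusted p of 0.0579 and 0.0716 by edgeR's quasi-likelihood test. Plk2, a kinase of the synaptic scaling response, had 195, 221, 196 and 198 CPM in Tau trained and 189.7, 149, 154 and 162 CPM in Tau naive libraries, a difference of 0.31 ± 0.10. Jun, an AP-1 partner of Fos, had 119, 121, 143 and 126 CPM in Tau trained and 113, 97.1, 101 and 108 CPM in Tau naive libraries. Dusp4, a nuclear MAP kinase phosphatase, had 19.2, 20.9, 17.99 and 19.8 CPM in Tau trained and 18.1, 15.5, 13.7 and 14.2 CPM in Tau naive libraries, which overlap by a narrow margin.

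Fos had 3.55, 5.14, 7.82 and 13.5 CPM in Tau trained libraries, against 15.2, 9.70, 15.4 and 13.1 CPM in Tau naive libraries. The 2 lowest of all 36 Fos values were those of Tau trained replicates 1 and 2, and the highest Tau trained value belongs to the library labelled replicate 4, whose Prnp level goes against its label. Arc had 63.1, 90.8, 111 and 123 CPM in Tau trained and 114, 70.1, 102 and 104 CPM in Tau naive libraries. Egr1 had 82.1, 100.1, 85.8 and 116 CPM in Tau trained and 152, 83.5, 104 and 101 CPM in Tau naive libraries. Neither Arc nor Egr1 separated the groups. Npas4 had 10.2, 10.9, 11.4 and 18.99 CPM in Tau trained and 12.1, 13.4, 19.7 and 23.2 CPM in Tau naive libraries. For Fos and Npas4, only the library labelled Tau trained replicate 4 lay within the Tau naive range, and the other Tau trained libraries lay below it. The share of all genes with that pattern was not computed. Nr4a1 had 40.5, 46.8, 49.8 and 55.3 CPM in Tau trained and 63.2, 41.3, 66.7 and 46.9 CPM in Tau naive libraries. Homer1 had 181, 184, 173 and 183 CPM in Tau trained and 179.7, 151, 165 and 149 CPM in Tau naive libraries. The differences were -0.87 ± 0.48 for Fos, -0.42 ± 0.27 for Npas4, -0.18 ± 0.27 for Nr4a1 and 0.16 ± 0.10 for Homer1. None of these 4 had an unadjusted p under 0.05.

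By role, 4 of 6 effectors lay higher in Tau trained mice (median 0.15), while 6 of 8 AP-1 genes and partners (median -0.08) and 6 of 9 other nuclear regulators (median -0.10) lay lower. Unadjusted p was under 0.05 for 6 members, all higher in trained libraries (Bdnf, Ptgs2, Plk2, Dusp4, Jun and Egr3). They are 13.95% of members, against 14.6% of all genes in either direction and 6.85% of all genes higher. The count was 3 with the library number as a covariate, where the member median was -0.16 and the Plk2 difference 0.11. The library numbers are 3, 4, 8 and 9 for Tau trained and 11, 33, 34 and 36 for Tau naive. They do not overlap, so training in Tau and library number cannot be told apart by this covariate. With single libraries left out the median ran from -0.07 (without Tau naive replicate 2) to 0.06 (without Tau naive replicate 1). In 4 members (Bdnf, Jun, Plk2 and Ptgs2) the groups did not overlap and trained libraries were higher, which also held for 5.65% of all genes. DESeq2 called Bdnf and Ptgs2 (adjusted p of 0.00747 and 0.0107), where 2.12% of its genes passed, and limma-voom called Bdnf, Ptgs2, Plk2 and Dusp4, where 3.07% passed. Without the library labelled Tau trained replicate 4, the edgeR differences were 0.42 for Bdnf and 0.50 for Ptgs2, with adjusted p of 0.138 and 0.177. The member median was then -0.03, and 8 members had an unadjusted p under 0.05.

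Tissue markers moved with this comparison. The 10 dentate granule markers lay higher in all cases (median 0.48, 9 with unadjusted p under 0.05), with a summed level of 813 to 947 CPM in Tau trained and 510 to 717 CPM in Tau naive libraries. The 12 choroid plexus markers lay lower (median -3.06), at 100 to 621 CPM in Tau trained and 1444 to 3954 CPM in Tau naive libraries. The 8 thalamic markers lay lower too (median -1.29), at 138 to 185 CPM in Tau trained and 191 to 374 CPM in Tau naive libraries. With the dentate granule score as a covariate the difference was 0.30 for Bdnf and 0.38 for Ptgs2, with adjusted p of 0.487 and 0.546 by edgeR's quasi-likelihood test, and 2 members had an unadjusted p under 0.05, in place of 6. Whether granule cell content accounts for the values was not tested.

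Of 37 genes upstream of the response (receptors, kinases, phosphatases and factors), 25 lay above 0 and 0 passed after adjustment. In either direction, 16 of the 37 had an unadjusted p under 0.05, against 14.6% of all genes. Map2k1, the MAP kinase kinase that activates ERK, had the smallest p, at 0.26 ± 0.06 with an adjusted p of 0.0579 by edgeR's quasi-likelihood test. The 41 further activity-regulated genes had a median of 0.05, with 25 above 0 and 0 called. Of these, 6 had an unadjusted p under 0.05, against the same 14.6% of all genes.

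The members stood near 0 in double transgenic mice, with a median of 0.02, against 0.00 for all genes, and 22 of 43 above 0. Fos had 25.2, 13.96 and 31.9 CPM in APP/Tau trained libraries and 11.99 to 33.8 CPM (median 20.9) in APP/Tau naive libraries. Arc had 162, 155 and 193 CPM in APP/Tau trained and 92.7 to 272 CPM (median 153) in APP/Tau naive libraries. Egr1 had 160.3, 175 and 205 CPM in APP/Tau trained and 103 to 229 CPM (median 161) in APP/Tau naive libraries. For all 3 genes the trained libraries lay inside the naive range. Npas4 had 21.8, 14.9 and 19.8 CPM in APP/Tau trained and 15.1 to 29.1 CPM (median 21.4) in APP/Tau naive libraries. Nr4a1 had 94.9, 79.6 and 82.1 CPM in APP/Tau trained and 49.9 to 121 CPM (median 72.9) in APP/Tau naive libraries. The overlap was again wide. Bdnf had 39.9, 46.7 and 41.3 CPM in APP/Tau trained and 37.7 to 51.4 CPM (median 40.5) in APP/Tau naive libraries. Homer1 had 163, 194 and 156 CPM in APP/Tau trained and 172 to 193 CPM (median 183) in APP/Tau naive libraries. The differences of these genes ran from -0.23 ± 0.27 for Npas4 to 0.14 ± 0.26 for Nr4a1.

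No member had an unadjusted p under 0.05 here, against 3.07% of all genes. The members with the smallest p were the nuclear receptor Nr4a2 at -0.26 ± 0.15, the basic leucine zipper repressor Nfil3 at -0.30 ± 0.19 and the CREM repressor and activator gene Crem at -0.18 ± 0.13. Their adjusted p was 1.000 each with edgeR's quasi-likelihood test. Without APP/Tau trained replicate 3 the Nr4a2 difference was -0.14, and 1 member had an unadjusted p under 0.05 without APP/Tau trained replicate 1 or 2 or without APP/Tau naive replicate 6. The member median ran from -0.03 to 0.06 with single libraries left out. Nfil3 was at 10.7, 10.2 and 10.7 CPM in APP/Tau trained libraries and 11.3 to 14.1 CPM (median 13.4) in APP/Tau naive libraries. Crem was at 13.02, 14.7 and 14.2 CPM in APP/Tau trained and 14.8 to 17.1 CPM (median 15.8) in APP/Tau naive libraries. In both the groups did not overlap and trained libraries were lower, which held for 0.973% of all genes. Among 78 further activity-regulated and upstream genes Vgf had the smallest p, at 0.23 ± 0.11 with an adjusted p of 1.000 by edgeR's quasi-likelihood test, and 2 of 41 further activity-regulated genes and 0 of 37 upstream genes had an unadjusted p under 0.05.

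In wild-type mice, 19 of 43 members lay above 0 after training, with a median of -0.02, against -0.01 for all genes. Fos had 19.3, 7.51, 15.1, 28.2 and 6.79 CPM in WT trained libraries, against 7.16 to 31.7 CPM (median 15.95) in WT naive libraries. Arc had 151, 72.5, 170.3, 175 and 75.8 CPM in WT trained and 65.2 to 182 CPM (median 128) in WT naive libraries. Egr1 had 138, 98.2, 155, 224 and 79.5 CPM in WT trained and 108 to 178 CPM (median 144) in WT naive libraries. All 3 overlapped widely between the groups, and WT trained replicate 4, the library with high striatal markers, was the highest trained library in each. Npas4 had 16.7, 14.2, 17.1, 30.2 and 13.1 CPM in WT trained and 9.51 to 24.8 CPM (median 19.7) in WT naive libraries. Nr4a1 had 86.6, 54.01, 69.6, 97.4 and 50.03 CPM in WT trained and 36.7 to 109 CPM (median 69.2) in WT naive libraries. The same library was the highest trained one for both. Bdnf had 54.9, 48.2, 50.3, 41.6 and 52.1 CPM in WT trained and 43.8 to 54.7 CPM (median 48.4) in WT naive libraries. Homer1 had 161, 169, 208, 187 and 200.3 CPM in WT trained and 147 to 222 CPM (median 174) in WT naive libraries. Neither gene separated trained from naive mice.

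The differences were -0.16 ± 0.38 for Fos, 0.05 ± 0.28 for Arc, -0.02 ± 0.21 for Egr1, -0.02 ± 0.23 for Npas4, 0.08 ± 0.23 for Nr4a1, 0.00 ± 0.08 for Bdnf and 0.04 ± 0.08 for Homer1. No member had an unadjusted p under 0.05, against 5.85% of all genes, and none had groups that did not overlap. The member median ran from -0.08 (without WT naive replicate 6) to 0.06 (without WT naive replicate 1), and 0 members had an unadjusted p under 0.05 when the 3 libraries that stand apart were left out. The smallest p-values belonged to Dusp4 at -0.13 ± 0.09, the TGF-beta inducible factor Klf10 at 0.17 ± 0.14, and the zinc-finger factor Egr2 at -0.08 ± 0.07. Their adjusted p was 0.868, 0.891 and 0.903 with edgeR's quasi-likelihood test. The Klf10 difference was 0.09 without WT trained replicate 1, and that of Dusp4 was -0.08 without WT naive replicate 4. Penk, the enkephalin precursor, had the smallest p among the 78 further activity-regulated and upstream genes, at 0.98 ± 0.43 (adjusted p = 0.845 with edgeR's quasi-likelihood test). The 10 striatal markers all lay above 0 in this comparison (median 0.72), with 96.7 to 479 CPM in WT trained and 93.0 to 141 CPM in WT naive libraries, and their part in the Penk value was not tested.

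Over the 4 genotypes taken with equal weight, the median member lay 0.05 higher after training, against 0.00 for all genes. Bdnf lay higher by 0.15 ± 0.05, Ptgs2 by 0.16 ± 0.06 and Arl4d by 0.37 ± 0.19. Their adjusted p was 0.448, 0.574 and 0.630 with edgeR's quasi-likelihood test. The 2 members with an unadjusted p under 0.05, Bdnf and Ptgs2, are 4.65%, against 7.95% of all genes (3.82% higher). With the library number as a covariate the Arl4d difference was 0.09, the member median -0.01, and 1 member had an unadjusted p under 0.05. The count was also 1 without APP/Tau trained replicate 1, but 4 without APP trained replicate 1, APP/Tau trained replicate 3 or WT naive replicate 1, 5 without Tau naive replicate 1 and 6 without APP/Tau naive replicate 3. All 6 effectors lay above 0 (median 0.15), as did 5 of 8 AP-1 genes and partners (median 0.05). Grin1, the obligate NMDA receptor subunit, had the smallest p of the upstream genes, at 0.10 ± 0.03 (adjusted p = 0.436 with edgeR's quasi-likelihood test).

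The difference in training response between a transgenic genotype and WT was tested as an interaction. For Tau, the training difference exceeded that in WT by 0.68 ± 0.17 for Ptgs2, 0.45 ± 0.12 for Bdnf and 0.47 ± 0.14 for Dusp4. Their adjusted p was 0.329, 0.411 and 0.411 with edgeR's quasi-likelihood test, and 4 members (9.30%) had an unadjusted p under 0.05, against 9.04% of all genes. For APP, 42 of 43 members had a training difference above that in WT (median 0.25, against 0.02 for all genes). Only Maff had an unadjusted p under 0.05 there, which is 2.33% of members, against 2.67% of all genes, with an excess of 0.94 ± 0.41, followed by Gadd45b at 0.39 ± 0.20 and Ptgs2 at 0.28 ± 0.17. That count was 0 to 3 with single libraries left out (0 without APP trained replicate 3, APP naive replicate 3 or 5, or WT trained replicate 3). The median was 0.17 when replicate 2 of the APP trained libraries was left out. For APP/Tau the median was 0.04 and 0 members had an unadjusted p under 0.05, against 4.14% of all genes. The smallest p-values were those of Klf10 at -0.31 ± 0.21, the stress-induced factor Atf3 at 0.83 ± 0.57 and Nr4a2 at -0.27 ± 0.20. Without APP/Tau trained replicate 1 the Klf10 value was -0.19 and the Atf3 value 0.34, and without APP/Tau trained replicate 3 the Nr4a2 value was -0.15. Without APP/Tau trained replicate 2 the Klf10 value was -0.47 and 2 members had an unadjusted p under 0.05, and without APP/Tau naive replicate 6 the count was 1. The medians of the Tau and APP/Tau interactions changed sign with several single libraries left out, with ranges of -0.08 to 0.10 and -0.05 to 0.11. No interaction of a member passed after adjustment, and 0% of all genes passed in each of the 3 interactions.

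**Figure D2:**
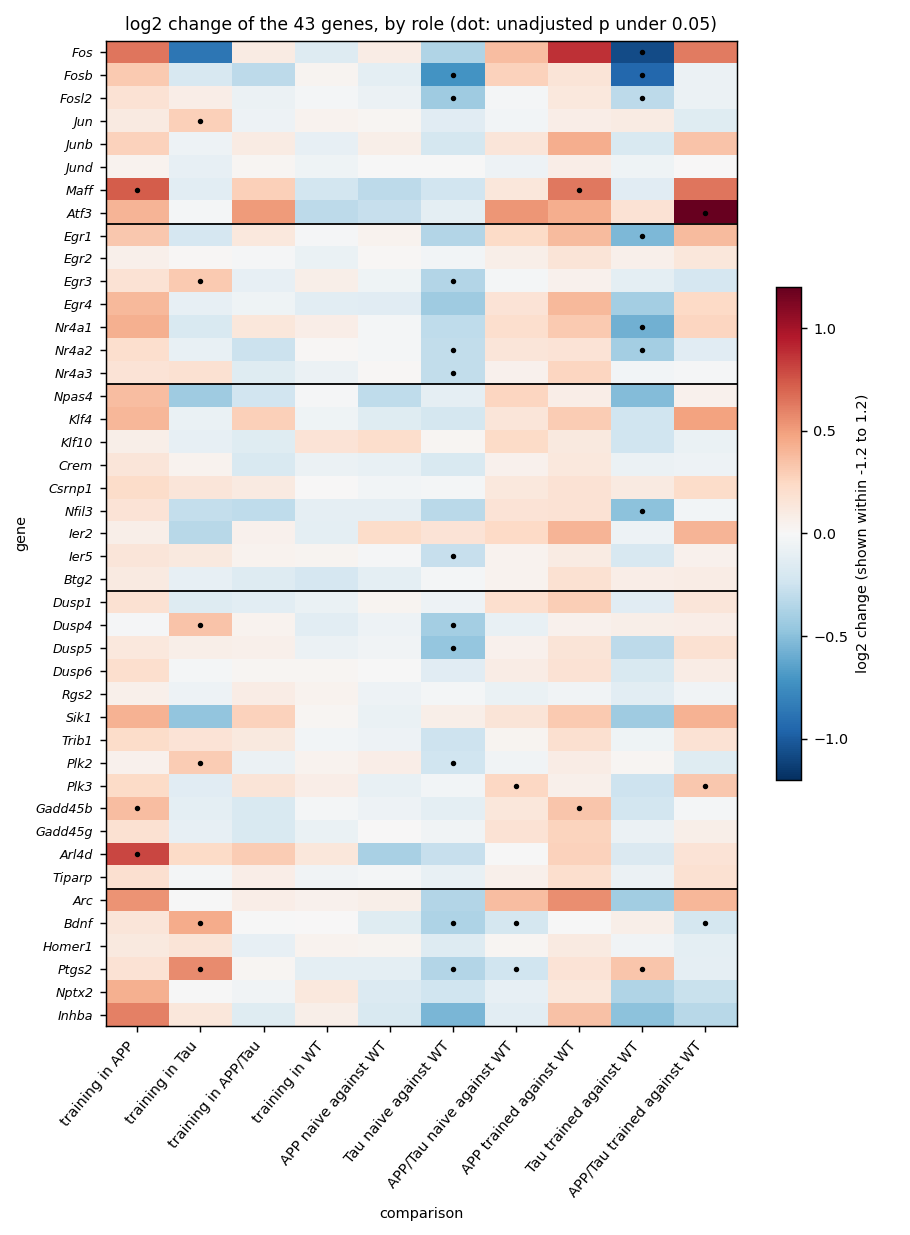
Log2 difference (colour, red higher and blue lower in the first-named condition, shown within -1.2 to 1.2) of the 43 genes in rows, grouped by role between black lines, in 4 training and 6 genotype comparisons in columns. A dot marks an unadjusted p under 0.05. The column of training in APP is red for 42 of 43 genes, and the column of Tau naive against WT is blue for 40 of 43.

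In untrained Tau mice, 40 of 43 members lay below WT, with a median of -0.23, against 0.00 for all genes. Ier2, Sik1 and Klf10 were the 3 that lay above 0. As several members varied together between libraries, these are not 43 independent results. The mean log2 CPM of the 43, centred over all libraries, was -0.04, -0.35, -0.15 and -0.24 in Tau naive libraries. In WT naive libraries it was 0.28, 0.05, 0.07, 0.21, -0.22 and -0.35, so the ranges overlap. Bdnf had 40.4, 34.1, 38.4 and 39.6 CPM in Tau naive libraries, all below the 43.8 to 54.7 CPM (median 48.4) of WT naive libraries, a difference of -0.37 ± 0.09. Dusp4 had 18.1, 15.5, 13.7 and 14.2 CPM in Tau naive libraries, against 18.9 to 23.8 CPM (median 19.9) in WT naive libraries, a difference of -0.40 ± 0.10. Ptgs2 had 21.2, 19.7, 21.5 and 23.7 CPM in Tau naive and 23.9 to 33.4 CPM (median 26.97) in WT naive libraries, a difference of -0.35 ± 0.12. For these 3 genes and for Ier5, a nuclear protein that acts with heat shock factor, every Tau naive library lay below every WT naive one, which held for 0.792% of all genes. Fosl2, an AP-1 partner, had 64.7, 48.7, 55.9 and 50.2 CPM in Tau naive and 51.8 to 95.1 CPM (median 77.8) in WT naive libraries, a difference of -0.42 ± 0.14. The Fosl2 ranges overlap. Adjusted p with edgeR's quasi-likelihood test was 0.220 for Bdnf, 0.279 for Dusp4 and 0.412 for Fosl2.

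Unadjusted p was under 0.05 for 11 members, all lower in Tau naive mice, which is 25.6%, against 9.31% of all genes (4.44% lower). They were Fosb and Fosl2 of 8 AP-1 genes and partners, Egr3, Nr4a2 and Nr4a3 of 7 EGR and NR4A factors, Ier5 of 9 other nuclear regulators, Dusp4, Dusp5 and Plk2 of 13 feedback genes, and Bdnf and Ptgs2 of 6 effectors. All 8 AP-1 genes and partners, all 7 EGR and NR4A factors and all 6 effectors lay below 0, with medians of -0.22, -0.31 and -0.35. Fos itself differed by -0.36 ± 0.41, Arc by -0.35 ± 0.30, Egr1 by -0.35 ± 0.23, Nr4a1 by -0.31 ± 0.24, Npas4 by -0.11 ± 0.25 and Homer1 by -0.15 ± 0.09. The further activity-regulated genes went the same way, with 32 of 41 below 0 (median -0.11) and 10 with an unadjusted p under 0.05. Marker lists also moved: dentate granule markers had a median of -0.14 (8 of 10 below 0), CA1 markers -0.16 (7 of 9 below 0), microglial markers 0.26 and choroid plexus markers 1.25. With the dentate granule score as a covariate the member median was -0.23, and with the choroid plexus score it was -0.21, with 8 members at an unadjusted p under 0.05. With the library number as a covariate the median was -0.14 and the count 6, and without WT naive replicate 1 the median was -0.15. With single libraries left out the count ran from 8 to 16. The part of these markers in single genes was not tested beyond that.

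In trained Tau mice, 34 of 43 members lay below trained WT mice, with a median of -0.17, against 0.00 for all genes. Fosb, whose truncated protein form is long-lived and builds up with repeated activity, had 6.05, 8.11, 7.48 and 8.61 CPM in Tau trained libraries, all below the 12.9, 8.86, 17.7, 19.9 and 13.02 CPM of WT trained libraries. The difference was -0.94 ± 0.30, and Fosb was the 1 member whose groups did not overlap with Tau lower, against 4.04% of all genes. Nr4a2 had 59.6, 65.1, 60.9 and 48.3 CPM in Tau trained and 81.5, 74.3, 93.00, 64.8 and 75.2 CPM in WT trained libraries, a difference of -0.41 ± 0.15. The Nr4a2 ranges touch, with 1 Tau trained library above the lowest WT trained one. Ptgs2 went the other way, with 29.8, 32.8, 28.6 and 36.02 CPM in Tau trained and 24.1, 24.7, 27.1, 20.2 and 30.2 CPM in WT trained libraries, a difference of 0.33 ± 0.12. Adjusted p with edgeR's quasi-likelihood test was 0.126, 0.167 and 0.189 for Fosb, Nr4a2 and Ptgs2.

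Fos differed by -1.07 ± 0.46, Egr1 by -0.54 ± 0.24, Nr4a1 by -0.57 ± 0.25, Npas4 by -0.52 ± 0.26 and Arc by -0.41 ± 0.32. Bdnf, which lay below WT in naive Tau mice, stood at 0.07 ± 0.09 here, and Homer1 at -0.04 ± 0.09. Unadjusted p was under 0.05 for 8 members, Ptgs2 higher and 7 lower, which is 18.6%, against 15.2% of all genes. By role, 6 of 7 EGR and NR4A factors lay lower (median -0.40), as did 11 of 13 feedback genes (median -0.13). The count was 13 without WT trained replicate 2, and 5 without WT trained replicate 3 or with the dentate granule score as a covariate. Without WT trained replicate 4 the member median was -0.09, and without Tau trained replicate 1 it was -0.11. It was -0.15 without WT trained replicates 4 and 5 and the library labelled Tau trained replicate 4, with 7 members at an unadjusted p under 0.05 and a Fosb difference of -0.87. Dentate granule markers lay higher in this comparison (median 0.27) and heat shock genes lower (median -0.22, 9 of 10 below 0). Their part in the members' values was not tested.

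In naive APP mice, 13 of 43 members lay above WT and the median was -0.05, against -0.01 for all genes. No member had an unadjusted p under 0.05, against 3.68% of all genes. The smallest p-values were those of Bdnf at -0.15 ± 0.08, Klf10 at 0.21 ± 0.14 and Npas4 at -0.30 ± 0.23, each with an adjusted p of 1.000 by edgeR's quasi-likelihood test. APP naive replicate 4 was the highest library of its group for Klf10, at 41.1 CPM, and the difference was 0.06 without it. The Npas4 difference was -0.20 without WT naive replicate 1. The median ran from -0.10 to 0.01 with single libraries left out, and the count was 2 without APP naive replicate 4 and 1 when replicate 1 of the APP naive or replicate 6 of the WT naive libraries was left out. In trained APP mice, 41 of 43 lay above WT with a median of 0.18, against 0.01 for all genes, and Rgs2 and Bdnf were the 2 below 0. Without APP trained replicate 2, the highest of its group for Arc, Egr1, Npas4 and Nr4a1, the median was 0.10. Gadd45b had 12.5, 16.5 and 13.1 CPM in APP trained libraries, all above the 11.3, 10.4, 11.96, 12.4 and 9.55 CPM of WT trained libraries. It was the 1 member whose groups did not overlap with APP higher, against 1.24% of all genes. The differences were 0.33 ± 0.15 for Gadd45b, 0.63 ± 0.31 for Maff and 0.88 ± 0.45 for Fos. Adjusted p with edgeR's quasi-likelihood test was 0.837 for Gadd45b, 0.841 for Maff and 0.841 for Fos. Unadjusted p was under 0.05 for 2 members, Gadd45b and Maff, which is 4.65%, against 5.84% of all genes (3.64% higher). The count was 7 without WT trained replicate 4, 6 without APP trained replicate 1, 0 without WT trained replicate 5, and 1 when replicate 2 or 3 of the WT trained libraries or replicate 2 of the APP trained ones was left out. With the last of these removed the Gadd45b difference was 0.21. The comparison of APP trained with APP naive uses the same 3 trained libraries. All 10 heat shock genes lay above 0 here as well (median 0.17).

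In naive double transgenic mice 31 of 43 members lay above WT (median 0.09, against 0.00 for all genes), while Bdnf and Ptgs2 lay below. Bdnf had 37.7 to 51.4 CPM (median 40.5) in APP/Tau naive and 43.8 to 54.7 CPM (median 48.4) in WT naive libraries, a difference of -0.21 ± 0.08. Ptgs2 had 19.3 to 28.7 CPM (median 22.5) in APP/Tau naive and 23.9 to 33.4 CPM (median 26.97) in WT naive libraries, a difference of -0.24 ± 0.11. Plk3, a stress-activated polo kinase, had 7.22 to 10.9 CPM (median 9.73) in APP/Tau naive and 7.11 to 10.2 CPM (median 7.54) in WT naive libraries, a difference of 0.25 ± 0.12. All 3 overlapped between genotypes, and they were the members with an unadjusted p under 0.05 (6.98%, against 7.48% of all genes). The count was 1 without APP/Tau naive replicate 5 or 6 or WT naive replicate 4, and 1 with the dentate granule score as a covariate, where the Plk3 difference was 0.15. The median was 0.02 without APP/Tau naive replicate 3 and 0.16 without WT naive replicate 1. Adjusted p with edgeR's quasi-likelihood test was 0.611 for Bdnf, 0.650 for Ptgs2 and 0.655 for Plk3.

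In trained mice the median of APP/Tau against WT was 0.08, against -0.01 for all genes, and 26 of 43 members lay above 0. Atf3 had 3.46, 1.22 and 1.94 CPM in APP/Tau trained and 0.750, 0.503, 1.23, 1.28 and 0.608 CPM in WT trained libraries, a difference of 1.36 ± 0.44 with an adjusted p of 0.275 by edgeR's quasi-likelihood test. Its counts were 38 to 289 per library, and without APP/Tau trained replicate 1, the highest library, the difference was 0.87. That library also has high microglial markers, whose list of 10 lay above WT in all cases (median 0.42), and their part in the Atf3 value was not tested. Plk3 differed by 0.33 ± 0.15 and Bdnf by -0.21 ± 0.10, with adjusted p of 0.448 and 0.459 by edgeR's quasi-likelihood test. Unadjusted p was under 0.05 for 3 members, which is 6.98%, against 10.2% of all genes. The count was 8 without WT trained replicate 4, 5 without APP/Tau trained replicate 2, 1 without WT trained replicate 5 and 1 with the dentate granule score as a covariate. Without APP/Tau trained replicate 1 the Plk3 difference was 0.13. The median was 0.03 without APP/Tau trained replicate 3 and 0.16 without APP/Tau trained replicate 2. Of the effectors, 5 of 6 lay below WT (median -0.16), while 5 of 8 AP-1 genes and partners lay above (median 0.17).

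**Figure D3:**
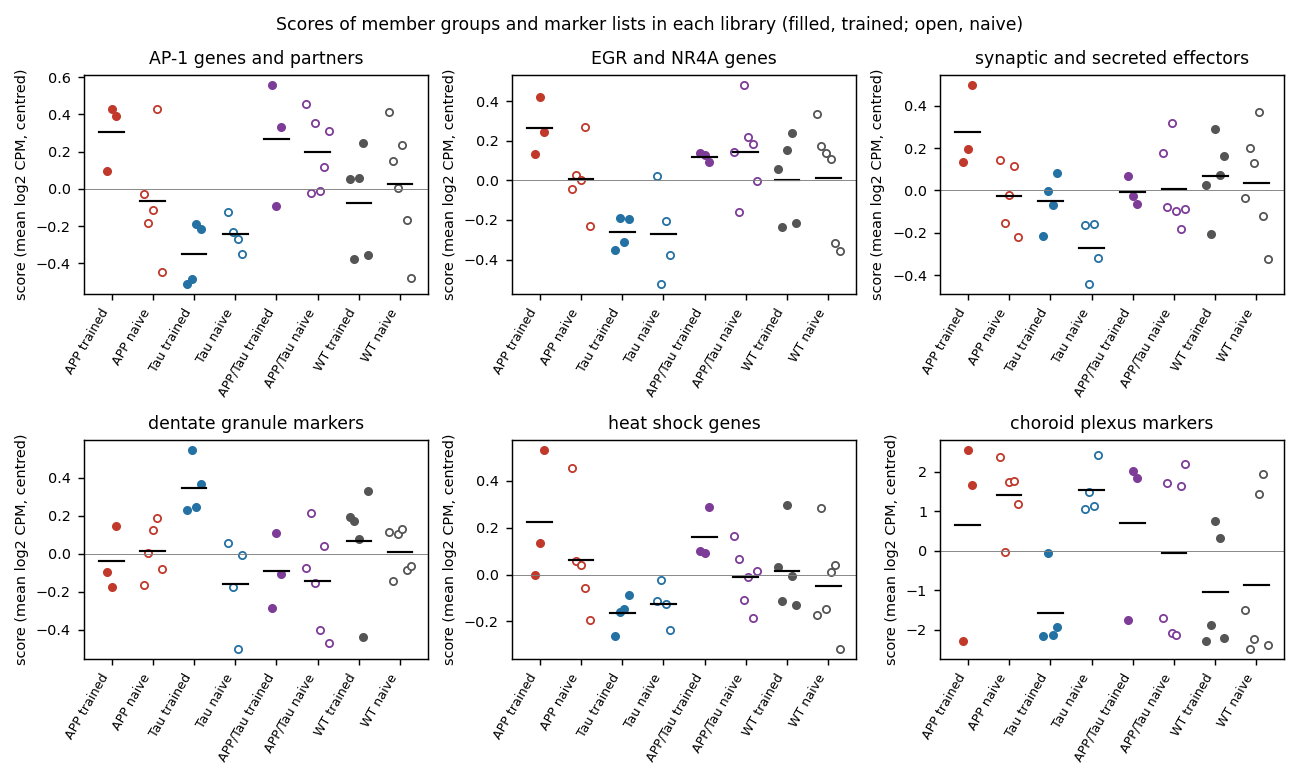
Score (mean log2 CPM of the listed genes, centred over all 36 libraries, in log2 units) of 3 member groups in the top row and of 3 marker lists in the bottom row, for each library by group, with trained libraries filled, naive libraries open and lines at group means. The Tau trained libraries lie at 0.23 to 0.55 for dentate granule markers, and choroid plexus scores run from -2.49 to 2.55 with wide scatter inside groups.

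The double transgenic mice were also set against the sum of both single effects. In naive mice 39 of 43 members lay above that sum, with a median of 0.33, against 0.00 for all genes, and 11 had an unadjusted p under 0.05 (25.6%, against 7.13% of all genes). That count was 4 with the library number as a covariate, 5 with the choroid plexus score and 17 with the replicate number as a block. Fosb exceeded the sum by 1.12 ± 0.38, Dusp4 by 0.38 ± 0.14 and Bdnf by 0.31 ± 0.12. Their adjusted p was 0.616, 0.616 and 0.623 with edgeR's quasi-likelihood test, and 0 members passed. The sum includes the Tau naive libraries, in which 40 of 43 members lay below WT. In trained mice the median was 0.06, with 3 members (6.98%, against 9.39% of all genes) under an unadjusted p of 0.05. No member passed after adjustment, against 0.0118% of all genes. The 3 were Ptgs2 at -0.60 ± 0.20, Plk3 at 0.51 ± 0.21 and Jun at -0.33 ± 0.16. The count was 1 when replicate 3 of the APP trained or replicate 4 of the WT trained libraries was left out, or with the dentate granule score as a covariate. The Plk3 value was 0.31 without APP/Tau trained replicate 1, and the median ran from -0.06 to 0.17, the values with replicates 1 and 2 of the APP trained libraries left out in turn.

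The members varied more between libraries of the same group than most genes did. Their median SD within groups was 0.24 in log2 CPM, against 0.15 for 16367 genes whose mean log2 CPM was 0 or more, and 38 of 43 were above that median. Fos had an SD of 0.66, Atf3 0.64, Arl4d 0.56, Arc 0.49 and Maff 0.48, which put these 5 above the 95th percentile of those genes. Over all 36 libraries Fos spanned a 10.4-fold range, Atf3 7.75-fold and Arc 4.31-fold.

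Libraries with high Fos for their group also had high levels of other early genes. After subtraction of each group's mean, Fos correlated over 36 libraries with Arc (Pearson r = 0.82, Spearman rho = 0.85), Junb (0.82 and 0.82), Egr1 (0.81 and 0.78) and Dusp1 (0.75 and 0.77). It also correlated with Nr4a1 (0.74 and 0.77) and Npas4 (0.56 and 0.57). Junb is an AP-1 partner and Dusp1 a MAP kinase phosphatase. In permutation tests of 100000 draws within groups, adjusted by Benjamini-Hochberg over 12 relations, the p of r was 3e-05 for Arc, Egr1, Junb and Dusp1, 7.2e-05 for Nr4a1 and 0.00574 for Npas4. The p before adjustment was 1e-05 for Arc, Egr1, Junb and Dusp1, the smallest these draws can give, 3e-05 for Nr4a1 and 0.00287 for Npas4. Without the 2 libraries farthest from the median of each gene, r was 0.79 for Arc, 0.84 for Junb, 0.76 for Egr1, 0.69 for Dusp1, 0.79 for Nr4a1 and 0.57 for Npas4.

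The effectors differed in this respect. Arc followed Fos as given above, while Bdnf had r = 0.36 and rho = 0.44 with Fos, with permutation p of 0.0445 and 0.014 (adjusted 0.0763 and 0.0239), and r = 0.49 without WT trained replicate 4 and APP/Tau naive replicate 3. Homer1 had r = -0.01 and rho = 0.04, with permutation p of 0.968 and 0.853 (adjusted 0.968 and 0.853). None of the 4 marker scores passed: r with Fos was -0.17 for dentate granule, -0.33 for CA1, 0.09 for choroid plexus and 0.22 for heat shock genes, with rho of -0.07, -0.29, 0.08 and 0.28. Their permutation p for r was 0.400, 0.0985, 0.648 and 0.257 (adjusted 0.479, 0.148, 0.706 and 0.343).

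**Figure D4:**
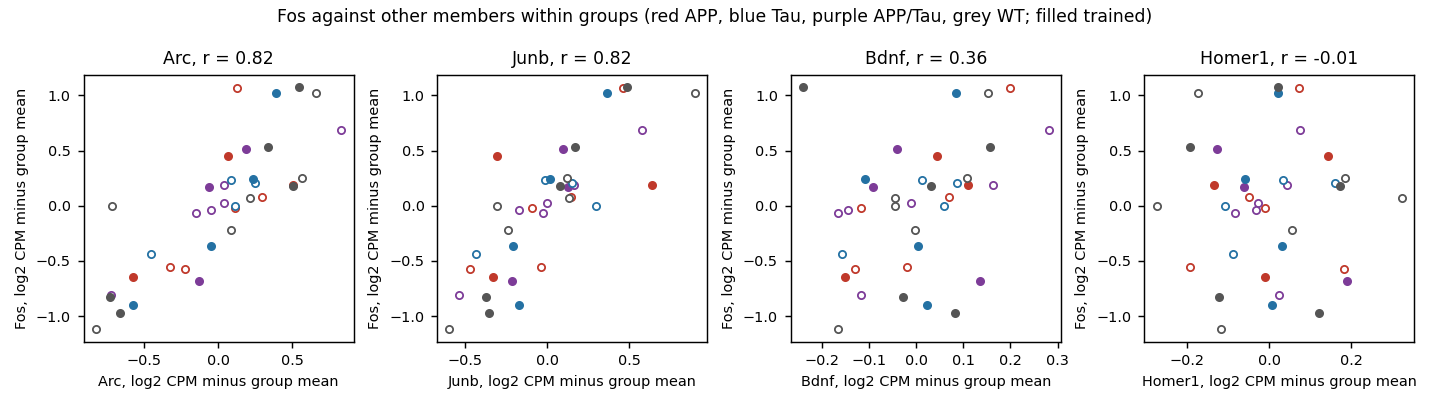
Fos (vertical axis) against Arc, Junb, Bdnf and Homer1 (horizontal axes), each as log2 CPM minus the mean of the library's group, for 36 libraries coloured by genotype, with trained libraries filled. The points run along the diagonal for Arc and Junb (r = 0.82 each) and show no slope for Homer1 (r = -0.01).

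Promoter letters of the members were read from RefSeq (GRCm38.p6, a build other than that of the counts) and are given as a description only. A promoter of 33 of the 43 members was in the table, and the 250 bases before each start were searched on both strands. Sites farther upstream were not searched, so a member without a site here may hold one there. The core TGACG of the cyclic AMP response element (CRE) stood in 23 of the 33 members (69.7%), against 19.8% of 27025 genes with a promoter. The full palindrome TGACGTCA, which contains that core, stood in 5 of 33 (15.2%, against 1.77%), namely Arl4d, Btg2, Dusp1, Maff and Plk2. A CArG box stood in 2 (6.06%, against 1.62%), Dusp5 and Egr2. The AP-1 site TGACTCA stood in 1 (3.03%, against 5.16%), and the EGR sites GCGGGGGCG or GCGTGGGCG in 5 (15.2%, against 3.47%). Counted per promoter, with several starts for some genes, the TGACG core stood in 29 of 49 member promoters (59.2%) and in 17.8% of 32851 promoters.

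Sequences of 100 bases are shown for Fos, for Npas4 and Nr4a1, 2 of the 6 early genes that varied with it, for Homer1, whose r with Fos was near 0, for Bdnf, whose r was 0.36, for Plk2 with the full palindrome and for Dusp5 with CArG boxes. They run 5′ to 3′ on the strand of the gene, and capitals mark the TGACG core on either strand (CGTCA on the opposite one), the palindrome in Plk2 and, in Dusp5, the CArG boxes alone. The Dusp5 window also holds the core on the opposite strand, left in lower case. The windows are chr12:85473750-85473849 (+) for Fos, chr19:4990072-4990171 (-) for Npas4, chr15:101266746-101266845 (+) for Nr4a1, chr13:93303657-93303756 (+) for Homer1, chr2:109692336-109692435 (+) for 1 of 7 listed starts of Bdnf, chr13:110394944-110395043 (+) for Plk2 and chr19:53529045-53529144 (+) for Dusp5.
Fos: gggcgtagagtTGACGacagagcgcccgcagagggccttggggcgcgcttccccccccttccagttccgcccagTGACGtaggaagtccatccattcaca
Npas4: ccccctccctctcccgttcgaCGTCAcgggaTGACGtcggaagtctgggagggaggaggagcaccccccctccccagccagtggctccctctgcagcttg
Nr4a1: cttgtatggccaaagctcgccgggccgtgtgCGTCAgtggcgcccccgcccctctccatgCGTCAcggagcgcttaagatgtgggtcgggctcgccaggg
Homer1: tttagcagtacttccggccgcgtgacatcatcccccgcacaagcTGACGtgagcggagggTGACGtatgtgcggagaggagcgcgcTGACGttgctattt
Bdnf: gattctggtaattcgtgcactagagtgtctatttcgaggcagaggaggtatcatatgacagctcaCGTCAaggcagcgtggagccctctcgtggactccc
Plk2: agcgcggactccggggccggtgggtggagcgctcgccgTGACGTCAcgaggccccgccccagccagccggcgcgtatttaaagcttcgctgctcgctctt
Dusp5: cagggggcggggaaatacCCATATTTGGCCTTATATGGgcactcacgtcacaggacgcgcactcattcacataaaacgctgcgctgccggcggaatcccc

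The Fos window holds the core 129 and 66 bases before the start, Npas4 179 and 169 bases before it, and Nr4a1 69 and 40 bases before it. Homer1 holds 3 copies, 56, 40 and 14 bases before the start. Whether the core bears on variation with Fos was not tested. The printed Bdnf start holds it 35 bases upstream, and gene counts add up the transcripts of all Bdnf starts. Plk2 holds the palindrome 62 bases before the start, and Dusp5 holds 2 CArG boxes 82 and 72 bases before it.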

How the data were processed

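Bulk RNA sequencing of 36 hippocampal input libraries from 8 groups was analysed. The authors deposited raw counts per gene symbol as whole numbers. The submitters' processing notes name Trimmomatic 0.39 for trimming and mm39 as genome build. For the aligner, counting tool, annotation and use of strand, the sources used here give nothing, so reads of overlapping or antisense genes cannot be told apart. Of counts from 1 to 10, 54.7% were even, against 50.0% over 1000, so counts may come in pairs and be less precise than they look.

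Groups came from the labels. Whether each library is a separate mouse is not stated, and p-values then reflect spread between libraries that may be technical. None of 68 same-group pairs of libraries was identical (chi-square per degree of freedom 14.4 to 157).

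Counts were tested with edgeR 4.0.16 in R 4.3.3 after filterByExpr (minimum count 10, minimum total 15) and TMM scaling, in 1 quasi-likelihood fit of all libraries with 16 contrasts, each adjusted by Benjamini-Hochberg at 0.05 over 25382 genes. Scores use log2 CPM with a prior count of 2. The fit was tested on simulated counts of Tau naive against WT, at an adjusted p of 0.05. It recovered 83% of 100 genes changed by 1 in log2 and 44% of 100 changed by 0.5, with 10 false calls. The simulated spread was the trend over all genes, so recovery of genes more variable than that was not measured. DESeq2 1.42.0 and limma-voom 3.58.1 were alternatives. The members, lists and tests were chosen with earlier results of these data known. Fos, Arc, Egr1, Npas4, Nr4a1, Bdnf and Homer1 were given by library in every group, and in each contrast the 3 members with the smallest p, together with the listed gene outside the members with the smallest p in training contrasts. Other members named with a value were chosen after their values were seen.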

Additional observations from a re-analysis of the deposited data

Results flagged for a closer look

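Of 138 sets of a member in a group of 4 to 10 libraries, 11 held a library far from the others by Dixon's test at the 95% level, where chance gives about 1 in 20. Each was the highest of its group. Fos was at 34.4 CPM in APP naive replicate 4 and Arc at 272 CPM in APP/Tau naive replicate 3, which also stood out for Dusp4 at 24.0 CPM. Npas4 stood out in WT trained replicate 4 at 30.2 CPM, the library with high striatal markers, where Plk3 did too at 11.0 CPM. In the library labelled Tau trained replicate 4, whose Prnp level goes against its label, Npas4 was at 18.99 CPM and Nfil3 at 9.04 CPM. The others were Plk2 at 221 CPM in Tau trained replicate 2, Atf3 at 2.02 CPM in Tau naive replicate 2, Dusp4 at 23.8 CPM in WT naive replicate 4 and Plk3 at 10.2 CPM in WT naive replicate 6.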

How the results depend on the processing

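The number of members called was recomputed 384 times over 16 contrasts (10 other settings and each library left out), and it was 0 as in the reported fit in 379. For training in Tau it was 4 with limma-voom (3.07% of all genes), 2 with DESeq2 (2.12%) and 2 with a fit on only the groups compared (1.28%). It was between 0 and 1 with a library left out. Bdnf was called without Tau naive replicate 1, where 0.758% of all genes passed. For Tau trained against WT it was 1 (Nr4a2) with limma-voom, where 5.12% of all genes passed. The cause was not tested. The median difference of the members ran from -0.16 to 0.06 for training in Tau and from 0.02 to 0.17 for APP/Tau naive against WT over all settings. Of 1152 values of named members 1143 kept their direction and side of the threshold, 9 passed it and 0 reversed. Without the 2 farthest libraries, the relation of Fos with Bdnf passed (r = 0.49), and that with dentate granule markers turned to r = 0.062.

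With the replicate number as a block, the edgeR count of members called stayed at 0 in each of the 16 contrasts. The Bdnf difference for training in Tau was then 0.45, with an adjusted p of 0.0576 by edgeR's quasi-likelihood test. Counts of members with an unadjusted p under 0.05 moved. They were 15 in place of 11 for Tau naive against WT, 12 in place of 8 for Tau trained against WT and 2 in place of 3 for training in APP. The replicate numbers do not pair the libraries. Over 106 pairs with the same number in different groups, deviations from the group mean had correlations of -0.34 to 0.23 (mean -0.01), 18 of them over 0.1. Over 456 pairs with different numbers in different groups the correlations were -0.41 to 0.43 (mean 0.00), 72 of them over 0.1. The dentate granule covariate and the removal of 3 libraries that stand apart were chosen after seeing the data. Atf3 and Maff, at about 1 CPM, have the lowest counts of the members, at 38 to 289 and 43 to 231 per library.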
